A study of Zea mays with 18 samples.

Results

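The 5 maize gene models described here encode enzymes of the plastid route from simple sugar phosphates to carotenoids: dxs1 (GRMZM2G137151), the phytoene synthases psy1 (GRMZM2G300348) and psy2 (GRMZM2G149317), and the carotene hydroxylases BCH1 (GRMZM2G164318) and BCH2 (GRMZM2G152135). They were chosen by gene model and pathway role, out of 31855 gene models, with earlier results of these data known. Counts of the 5 called, set beside the share of all genes, are therefore descriptions and not an independent test. All 5 had a value in each of 18 RNA-seq libraries. The libraries came from leaves of the maize hybrid Xianyu 335 at grain filling, from plants grown at high (H) or low (L) density. The ear leaf (E) was sampled together with the third leaf above (A) and the third leaf below it (B). The 6 groups HA, HE, HB, LA, LE and LB are named by their titles, hold 3 libraries each, and share cultivar, stage and otherwise ordinary growth conditions. The sources used here state no number of plants per area and do not say whether replicate libraries stand for different plants, so p-values measure the spread between these samples, which may be technical. For LA there is a conflict: all 3 titles place it in the low-density set, but the treatment field says high density. Every comparison with LA below therefore rests on the titles and carries that conflict.

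In plastids the methylerythritol phosphate (MEP) pathway makes the isoprenoid units used for carotenoids, the phytol tail of chlorophyll, tocopherols and abscisic acid. Deoxyxylulose phosphate synthase, encoded by dxs1, catalyses its first step, and phytoene synthase joins a pair of geranylgeranyl diphosphates into phytoene, the first carotenoid and a main control point of the branch. Beta-carotene hydroxylases add hydroxyl groups to the rings at the other end of the route and give rise to zeaxanthin, which feeds photoprotection and abscisic acid synthesis. In maize, psy1 is known as the gene behind yellow endosperm and is also transcribed in leaves, where psy2 acts beside it.

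Values are RPKM, reads per kilobase of gene scaled to the reads mapped, as deposited, and differences are in log2(RPKM + 0.5), which understates the change of genes near or below 0.5 RPKM. A gene was called at a Benjamini-Hochberg adjusted p under 0.05 in a limma fit over the 21184 genes that reached 1 RPKM in 3 or more libraries. All 5 genes passed that filter, BCH1 through its values in the upper leaves and in LE, so a gene as low as BCH1 in the lower leaves entered the test only because it was higher elsewhere. Steps in the values of low genes gave relative depths between 0.886 and 1.12, with LE and LB at 0.918 to 0.957 and HE at 1.01 to 1.05, so depth moved with the ear-leaf comparison, and its part in the results was not tested. The C4 leaf markers were present throughout: the 4 mesophyll genes summed to 2306 to 15099 RPKM and the 4 bundle sheath genes to 836 to 2455 RPKM per library. LB replicate 2 stood apart for these enzymes, being the lowest LB library for dxs1, psy1, psy2, BCH1 and BCH2. RNA of whole leaves cannot tell fewer cells of a type from less RNA per cell. Reads shared by the paralogs psy1 and psy2, or BCH1 and BCH2, could be split between them, since the handling of such reads and of strand is not given in the sources used here.

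At the entry to the pathway, dxs1 ranged over 16.0-fold between group means, from 1.07 ± 0.323 RPKM in HB to 17.2 ± 5.88 in LA (SD, n = 3 libraries per group throughout). Its libraries read 16.7, 7.22 and 11.9 RPKM in HA, 22.9, 17.5 and 11.1 in LA, 3.27, 3.31 and 2.99 in HE, 12.3, 6.11 and 11.2 in LE, 0.953, 0.828 and 1.44 in HB, and 8.79, 2.94 and 10.4 in LB. The 6 libraries of HE and HB were lower than all others except LB replicate 2, which lay just below the HE range. In the order of means LA, HA, LE, LB, HE, HB, the neighbours from LA down to LB lay within 1 SD of each other, whereas the steps from LB to HE and from HE to HB were wider than the larger SD.

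Of the phytoene synthases, psy1 was the most abundant of the 5 genes per length in every library and the least variable, with a 2.40-fold range of group means. It read 226, 198 and 185 RPKM in HA, 239, 177 and 221 in LA, 185, 164 and 175 in HE, 235, 209 and 223 in LE, 108, 78.8 and 91.7 in HB, and 193, 167 and 189 in LB. The 3 HB libraries were the lowest of the 18, and the means of the other 5 groups, from 222 ± 13.3 in LE to 175 ± 10.1 in HE, followed one another within 1 SD. Its paralog psy2 was present at roughly the level of dxs1 and spanned 11.2-fold. It read 15.4, 11.2 and 11.9 RPKM in HA, 18.9, 10.2 and 11.3 in LA, 3.58, 2.70 and 2.90 in HE, 7.84, 8.24 and 6.62 in LE, 1.58, 0.997 and 1.02 in HB, and 8.95, 2.55 and 8.70 in LB. The upper leaves of both titled densities were the highest and did not overlap with the other leaves, and LB replicate 2 fell below all 3 HE libraries.

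Among the hydroxylases, BCH1 spanned 44.7-fold, the widest range of the 5, from 8.23 ± 3.56 RPKM in HA to 0.184 ± 0.0594 in HB. Its libraries read 8.10, 4.75 and 11.9 RPKM in HA, 7.09, 4.68 and 2.67 in LA, 0.804, 0.877 and 0.589 in HE, 1.11, 0.768 and 1.73 in LE, 0.119, 0.235 and 0.199 in HB, and 0.444, 0.263 and 0.338 in LB. The lower-leaf values rest on very few reads: whole-number steps gave 3, 7 and 6 reads or read pairs in HB and 12, 7 and 9 in LB, and the exact Poisson 95% interval of 3 reads runs from 0.619 to 8.77, covering counting error only. BCH2 spanned 5.50-fold and was the only one of the 5 whose lowest mean was in HE. It read 17.0, 7.30 and 15.2 RPKM in HA, 15.6, 12.1 and 12.7 in LA, 2.15, 2.76 and 2.44 in HE, 4.82, 5.98 and 5.39 in LE, 3.08, 5.50 and 3.37 in HB, and 4.45, 1.05 and 2.02 in LB. The lower leaves of both densities overlapped with each other, and their means lay within 1 SD.

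**Figure D1:**
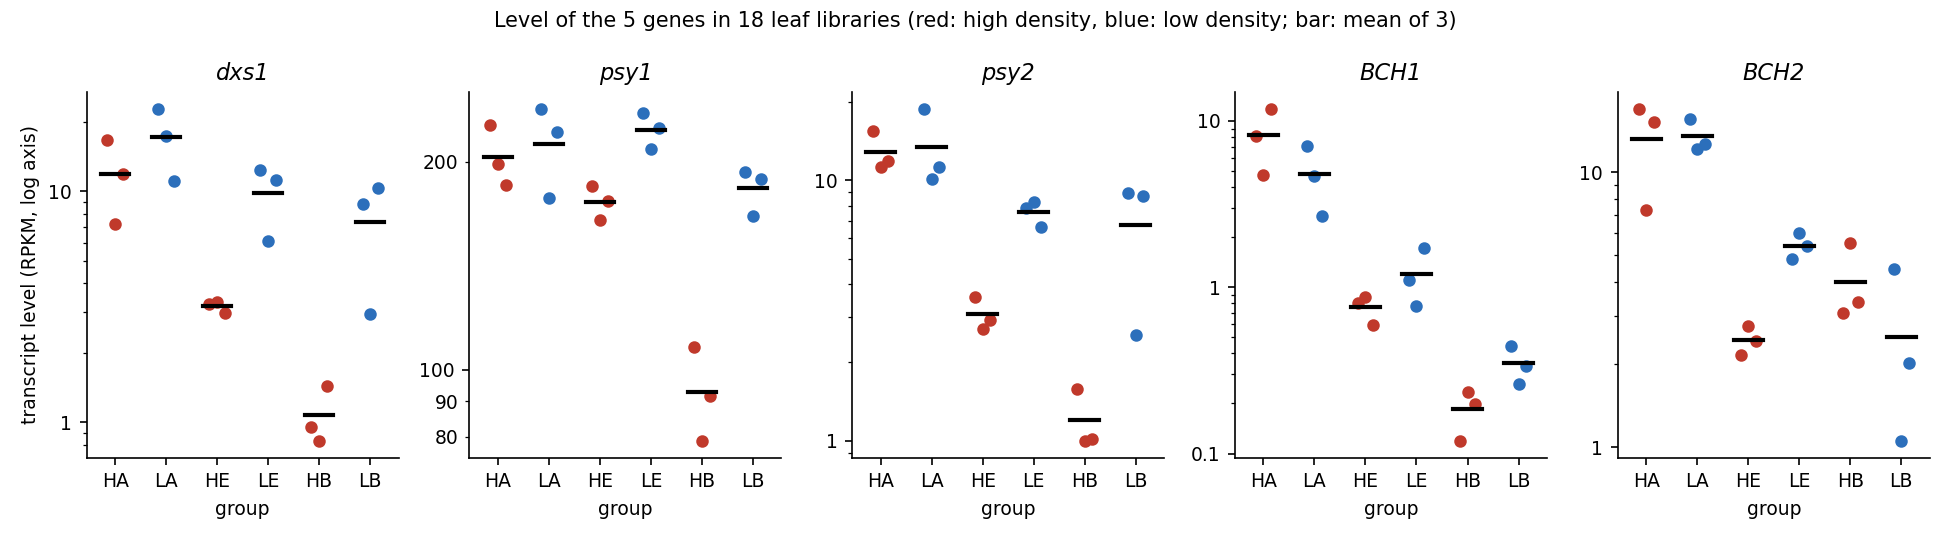
Transcript level (RPKM, log axis) of dxs1, psy1, psy2, BCH1 and BCH2 in each library of the 6 titled groups; red points are high-density and blue points low-density libraries by title, and the bar is the mean of 3. The HB libraries are the lowest for dxs1, psy1, psy2 and BCH1, and the upper leaves HA and LA are the highest for psy2, BCH1 and BCH2.

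Below the ear, dense planting went with less transcript of dxs1, psy1 and psy2, and with no called change of BCH1 or BCH2. Another gene of the entry enzyme, dxs2, went in the other direction. It averaged 32.8 ± 8.59 RPKM in HB against 12.4 ± 7.07 in LB, as described further below. That rise needed both HB replicate 3 and LB replicate 2 to be called, and median-ratio rescaling removed it (limma adjusted p = 0.0512). The sum of dxs1 and dxs2 was not tested. dxs1 averaged 1.07 ± 0.323 RPKM in HB against 7.36 ± 3.91 in LB, and fell by 2.18 in log2 (SE 0.39, limma adjusted p = 0.000642). psy2 averaged 1.199 ± 0.331 RPKM against 6.73 ± 3.63 and fell by 1.94 (SE 0.33, limma adjusted p = 0.000496). psy1 averaged 92.8 ± 14.5 RPKM against 183 ± 14.03 and fell by 0.99 (SE 0.13, limma adjusted p = 9.87e-05). For each of these 3 genes every HB library was below every LB library, where 39.9% of all genes did not overlap between HB and LB. Each of the 3 calls held when any 1 library was left out. All 3 of the 5 genes called were lower, where 11.3% of all genes tested were called lower and 22.1% higher. The median gene stood at 0.161 here; of all calls 66.1% were higher, 47.2% after median-ratio rescaling and 45.8% after quantile normalization, and the 3 falls kept their calls under both.

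The hydroxylases of the lower leaf were not called with all libraries in the fit. BCH1 averaged 0.184 ± 0.0594 RPKM in HB and 0.348 ± 0.0911 in LB, and the LB mean was 1.89-fold the HB mean. Its difference in log2(RPKM + 0.5) was -0.31 (95% interval -0.98 to 0.36, limma adjusted p = 0.478), a scale that understates changes at these levels. Its HB and LB libraries did not overlap, as was the case for 39.9% of all genes. BCH2 differed by 0.70 (interval -0.03 to 1.43, limma adjusted p = 0.128), with HB overlapping LB through LB replicate 1, and was called higher when that library was left out (1.14, limma adjusted p = 0.0143). Other leaf transcripts moved in the same libraries: all 4 mesophyll markers were lower in HB (summed 2306 to 3297 RPKM against 6728 to 12902 in LB), all 4 bundle sheath markers were lower (836 to 1544 against 1698 to 2300), and the 3 leaf-ageing genes SGR2, ICL and LIP were higher (186 to 608 against 4.28 to 8.59). The mesophyll and SGR2 calls held without any 1 library. ICL and LIP reached 1 RPKM in the HB libraries alone, so they entered the test only through the group where they were high. Without any 1 HB library they were not tested, and without any 1 LB library their calls held. Each bundle sheath call was lost without at least 1 library, that of NADP-malic enzyme without any 1 of 5. The phloem marker sut1 was not called (225 to 280 RPKM against 201 to 276). The part of these changes in the fall of dxs1, psy1 and psy2 was not tested.

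In the ear leaf dxs1 and psy2 were again lower at high density. The second gene of the entry enzyme, dxs2, was not called there and averaged 16.1 ± 3.31 RPKM in HE against 8.46 ± 2.88 in LE. dxs1 averaged 3.19 ± 0.177 RPKM in HE against 9.90 ± 3.33 in LE, and fell by 1.44 (SE 0.39, limma adjusted p = 0.0241). psy2 averaged 3.06 ± 0.462 RPKM against 7.57 ± 0.843 and fell by 1.18 (SE 0.33, limma adjusted p = 0.0290). These 2 of the 5 genes were called lower, where 4.97% of all genes were called lower and 8.97% higher (64.3% of calls higher, 55.0% after median-ratio rescaling and 46.2% after quantile normalization). Both calls rest on most libraries being present: dxs1 lost its call without HE replicate 2 or 3 or LE replicate 1 or 3 (adjusted p up to 0.101), and psy2 lost its call without any 1 of these, without LE replicate 2 or with no filter (0.0502).

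The other 3 genes of the ear leaf stayed outside the threshold, although psy1 (0.0350) and BCH2 (0.00519) came within it as limma adjusted p-values when only HE and LE were fitted, and BCH2 also with quantile normalization (0.0371). psy1 averaged 175 ± 10.1 RPKM against 222 ± 13.3, a difference of -0.35 (interval -0.63 to -0.06, limma adjusted p = 0.0928), without overlap. BCH2 averaged 2.45 ± 0.302 RPKM against 5.40 ± 0.581, a difference of -0.999 (interval -1.73 to -0.27, limma adjusted p = 0.0629), also without overlap. No overlap between HE and LE was found for 40.9% of all genes. BCH1 differed by -0.41 (interval -1.07 to 0.26, limma adjusted p = 0.418), with overlapping libraries. Of the leaf markers, 1 of 4 mesophyll genes (carbonic anhydrase) was lower in HE, a call lost without any 1 of 5 libraries. None of the 4 bundle sheath genes was called, although all 4 had the higher mean in HE and did not overlap. Their sums were 2046 to 2455 RPKM in HE and 1281 to 1769 in LE. The mesophyll sums were 9473 to 11772 RPKM in HE and 11503 to 14153 in LE, and the leaf-ageing sums 2.72 to 3.73 and 1.501 to 4.22.

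Above the ear, none of the 5 genes was called between HA and LA by limma, and 1 (BCH1) had an unadjusted p under 0.05; of all genes, 0.118% were called. BCH1 averaged 8.23 ± 3.56 RPKM in HA and 4.82 ± 2.21 in LA, a difference of 0.72 (interval 0.05 to 1.39, limma adjusted p = 0.530). The interval of the difference was -1.34 to 0.30 for dxs1, -0.34 to 0.23 for psy1, -0.73 to 0.69 for psy2, and -0.83 to 0.62 for BCH2. All 5 genes overlapped between HA and LA, whose libraries did not overlap for 14.3% of all genes.

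**Figure D2:**
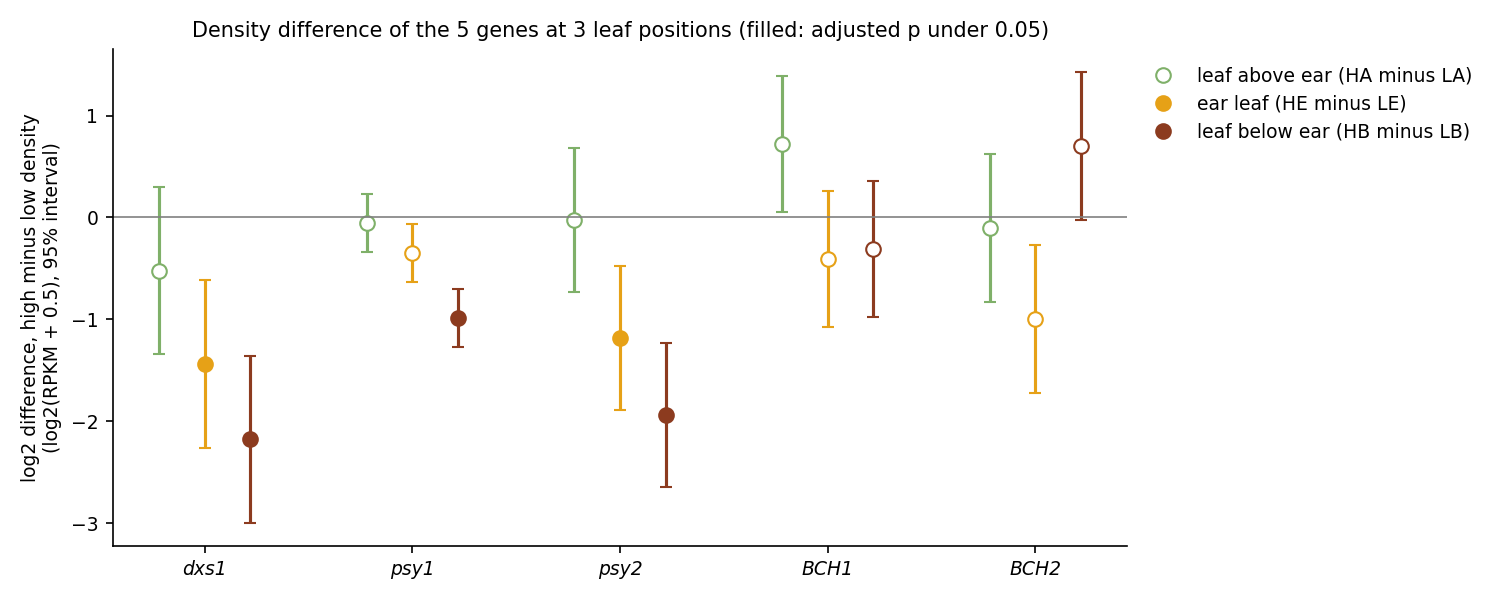
Difference between high and low density in log2(RPKM + 0.5) for the 5 genes in the leaf above the ear, the ear leaf and the leaf below the ear, with 95% intervals; filled points have a limma adjusted p under 0.05. Below the ear dxs1 lies at -2.18, psy2 at -1.94 and psy1 at -0.99, while BCH2 lies at 0.70.

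The density difference itself was compared between leaves. Against the upper leaf, the lower leaf had a larger fall of psy1 (difference of differences -0.93, SE 0.19, limma adjusted p = 0.00713) and of psy2 (-1.91, SE 0.47, limma adjusted p = 0.0178), where 5.10% of all genes were called in this direction. The psy1 call held without any 1 library, and the psy2 call was lost, with an adjusted p as high as 0.0535, on leaving out LB replicate 3 or LA replicate 2. For dxs1 the difference was -1.66 (interval -2.82 to -0.49, limma adjusted p = 0.0620). It was called without LB replicate 2 (-2.17, limma adjusted p = 0.00442), HA replicate 2 (0.0317) or LA replicate 1 (0.0468) and with a pseudocount of 0.1 (0.0430), and BCH1 was called without HA replicate 2 (0.0488). Between the lower leaf and the ear leaf none of the 5 was called by limma, with 2 at an unadjusted p under 0.05 and 3.85% of all genes called. Those 2 were psy1 at -0.64 (limma adjusted p = 0.0705) and BCH2 at 1.70 (interval 0.67 to 2.73, limma adjusted p = 0.0623), for which density differed by -0.999 in the ear leaf and by 0.70 in the lower leaf. Without LB replicate 2, psy1 (-0.70, limma adjusted p = 0.0272) and psy2 (-1.29, 0.0132) were called, without HB replicate 1 psy1 alone, and without LB replicate 1 BCH2 (2.14, 0.0211). Between the upper leaf and the ear leaf 0 of the 21184 genes (0%) were called by limma, against 3284 genes, 2 of the 5 among them, at an unadjusted p under 0.05.

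At high density all 5 genes were higher in the leaf above the ear than in the leaf below it. From HB to HA, BCH1 was higher by 3.59 in log2 (SE 0.32, limma adjusted p = 6.59e-07), psy2 by 2.98 (SE 0.33, 5.22e-06), dxs1 by 2.93 (SE 0.39, 2.18e-05), BCH2 by 1.56 (SE 0.34, 0.00156) and psy1 by 1.13 (SE 0.13, 8.14e-06). BCH1 passed the filter through the upper leaves and LE, a limit on its comparisons between leaves here and below. Its HB values rest on 3, 7 and 6 reads or read pairs. No library of HA overlapped with HB for any of the 5 (54.8% of all genes had none), and all 5 calls held without any 1 library. The share of all genes called higher in HA than in HB was 15.5%, with 28.4% lower (35.4% of calls higher, 50.6% after median-ratio rescaling and 49.8% after quantile normalization). Of the markers named above, the mesophyll genes were all called higher in HA and the leaf-ageing genes all lower. Of the latter, ICL and LIP were tested only because they were high in HB. Of the bundle sheath genes only PEP carboxykinase was called (higher in HA), and sut1 was not called. Mesophyll sums were 12071 to 13216 RPKM in HA, and leaf-ageing sums 2.69 to 3.95. Bundle sheath sums were 1134 to 1775 RPKM in HA and 836 to 1544 in HB. The part of these markers was not tested.

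Step by step, the ear leaf lay between the others for 4 of the 5 genes, BCH2 being the exception. Between HE and HA, 4 of the 5 genes were called higher in HA, where 1.19% of all genes were: BCH1 by 2.72 (limma adjusted p = 0.000201), BCH2 by 2.13 (0.00332), psy2 by 1.90 (0.00617) and dxs1 by 1.68 (0.0291). The first 3 calls held without any 1 library, and that of dxs1 was lost without HA replicate 1 or 3 or any 1 HE library, or with no filter (0.0588). psy1 differed by 0.21 (limma adjusted p = 0.499). Between HE and HB, 4 of the 5 were lower in HB, where 10.7% of all genes were: psy1 by 0.92 (a log2 change of -0.92, limma adjusted p = 0.000155), dxs1 (-1.25, 0.0245), psy2 (-1.08, 0.0239) and BCH1 (-0.87, 0.0487). Of these the psy1 call held without any 1 library, that of BCH1 was lost without any 1 of the 6, that of dxs1 without any 1 HE library or HB replicate 1 or 2, and that of psy2 without HE replicate 1 or 3 or HB replicate 2 or 3. The BCH1 call was also lost with both other filters, a pseudocount of 1 or either rescaling (limma adjusted p from 0.0504 to 0.134). BCH2 differed by 0.57 in the other direction (limma adjusted p = 0.235), with no overlap, as for 49.0% of all genes.

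At low density the largest positional differences of the 5 genes were those of the hydroxylases. From LB to LA, BCH1 was higher by 2.56 (SE 0.32, limma adjusted p = 0.000193) and BCH2 by 2.37 (SE 0.34, 0.000693), both also without any 1 library, and dxs1 by 1.27 (SE 0.39, 0.0496), lost without LA replicate 1 or 2 or LB replicate 2 and, with adjusted p from 0.0518 to 0.163, under both rescalings, a pseudocount of 0.1, no filter, no trend or only these groups fitted. These 3 of the 5 compare with 4.94% of all genes called higher, and the LB values of BCH1 rest on 12, 7 and 9 reads or read pairs. psy2 stood at 1.07 (limma adjusted p = 0.0539) and psy1 at 0.20 (0.334). Of the markers, carbonic anhydrase was called higher and NADP-malic enzyme lower in LA; mesophyll sums were 11211 to 15099 RPKM in LA and 6728 to 12902 in LB, bundle sheath sums 855 to 1707 and 1698 to 2300, and their part was not tested. Between LE and LA, where no marker was called, BCH1 was higher by 1.59 (limma adjusted p = 0.0135) and BCH2 by 1.24 (0.0460), and 3.63% of all genes were; the BCH1 call was lost without LA replicate 1 or LE replicate 1, and the BCH2 call without any 1 of the 6 libraries, with a pseudocount of 0.1, no filter, quantile normalization or no trend (0.0513 to 0.0724). Between LE and LB limma called none of the 5, with 2 (BCH1 at -0.97 and BCH2 at -1.13) at an unadjusted p under 0.05, and 0.288% of all genes were called; BCH2 was called without LB replicate 1 (-1.57, limma adjusted p = 0.0430). Whether the gradients of the 2 densities differ is the same contrast as the density differences between leaves given above.

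Within the phytoene synthase pair the share of psy1 was higher at high density in the ear leaf and below it. psy1 made up 98.3% ± 0.163 of the summed psy1 and psy2 RPKM in HE against 96.7% ± 0.465 in LE, and 98.7% ± 0.174 in HB against 96.6% ± 1.68 in LB. All 6 high-density libraries of these leaves were above every low-density library of the same leaf. In the lower leaf this was by a narrow margin, 98.56% in HB replicate 1 against 98.5% in LB replicate 2. The means of both genes were lower at high density in these leaves, with the larger log2 difference for psy2. The mean rise was 1.88 percentage points (exact 2-sided permutation test within leaf position over 400 arrangements, p = 0.005, the smallest it can give, and 0.01 after adjustment over the 2 shares tested); over all 3 leaf positions it was 1.23 points. In the upper leaf the share was 94.1% ± 0.524 in HA and 94.1% ± 1.30 in LA. BCH2 made up 76.4% ± 3.89 of the summed hydroxylase RPKM in HE against 81.9% ± 6.49 in LE, and 95.5% ± 0.993 in HB against 85.5% ± 5.47 in LB. The difference was -5.46 points in the ear leaf and 10.01 points in the lower leaf, and the pooled difference of 2.28 points had an exact 2-sided permutation p = 0.545. In the upper leaf BCH2 made up 61.5% ± 5.82 in HA and 74.5% ± 7.21 in LA.

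The second deoxyxylulose phosphate synthase gene, dxs2 (GRMZM2G493395), had its highest mean in HB, where dxs1 had its lowest. It averaged 32.8 ± 8.59 RPKM in HB, 16.1 ± 3.31 in HE and 4.37 ± 1.18 in HA, and 12.4 ± 7.07 in LB, 8.46 ± 2.88 in LE and 7.88 ± 7.09 in LA. Below the ear it was higher at high density by 1.55 (SE 0.50, limma adjusted p = 0.0256), a call lost without HB replicate 3 or LB replicate 2 and after median-ratio rescaling (0.0512), and in the ear leaf it differed by 0.93 (limma adjusted p = 0.229). Between HA and HB it was lower in HA by a log2 change of -2.77 (limma adjusted p = 0.000321). The dxs2 share of summed dxs1 and dxs2 RPKM, a measure chosen after its values were seen and given without a test, was 96.8% ± 0.319 in HB, 83.1% ± 3.57 in HE and 28.5% ± 13.4 in HA, and 62.0% ± 3.29 in LB, 46.3% ± 14.8 in LE and 28.8% ± 16.8 in LA. The HB libraries were the highest, from 96.6% to 97.2%, and the LB libraries, from 59.2% to 65.6%, included replicate 2.

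**Figure D3:**
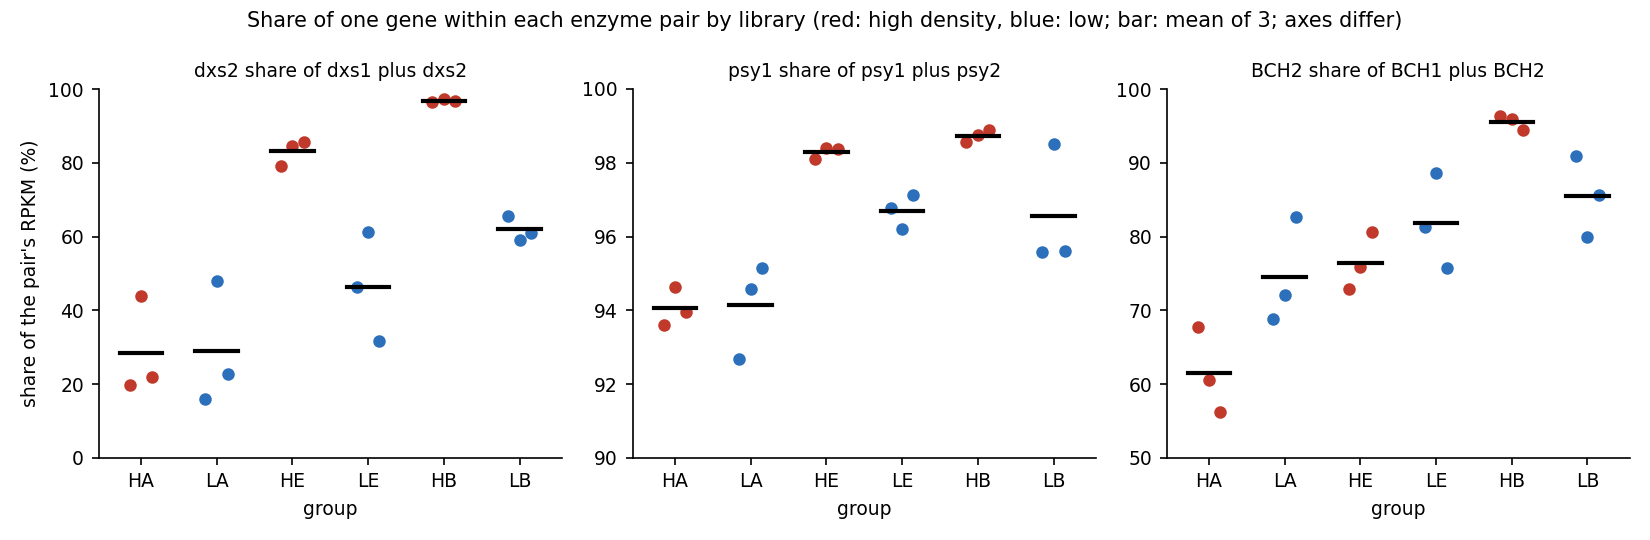
Share (%) of dxs2 in dxs1 plus dxs2, of psy1 in psy1 plus psy2, and of BCH2 in BCH1 plus BCH2 RPKM in each library (red high density, blue low density by title; bar, mean of 3; the vertical axes differ and those of psy1 and BCH2 do not start at 0). The HB libraries have the highest share in each panel: at least 96.6% dxs2, 98.6% psy1 and 94.4% BCH2.

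Other genes of the route and of neighbouring pathways were described from lists of named genes, 26 models besides the 5, of which 22 were tested. These include 5 tocopherol, 4 chlorophyll-breakdown and 2 PIF-named models, so pooled counts do not describe carotenoid genes alone. Lists for prenyl chains and the xanthophyll cycle were planned, but no gene of either is included. Below the ear 8 of these 22 were higher and 10 lower at high density, where 22.1% of all genes were called higher and 11.3% lower, with a median log2 difference of -0.38 against 0.16 over all genes tested. The counts for single lists below compare with the same percentages. In the list from phytoene to lycopene, which holds psy1 and psy2, 7 of 8 models were lower and 1 higher. The carotene desaturase vp9 fell by 1.22 (GRMZM2G454928, mean 3.77 ± 1.64 RPKM in HB and 9.96 ± 5.11 in LB) and by 0.69 (GRMZM2G454952, 53.4 ± 2.78 and 87.6 ± 15.6). The first call was lost without LB replicate 3 or with only HB and LB fitted (limma adjusted p = 0.0733). The carotenoid isomerases CRTISO1 and CRTISO2 each fell by 0.66, CRTISO1 from 31.6 ± 3.39 RPKM in LB to 19.7 ± 1.06 in HB (limma adjusted p = 0.000313). The reference table gives a pair of models for each of Pds and vp9, so their values are uncertain: for phytoene desaturase one model fell (GRMZM2G410515, -0.48) and the other rose (GRMZM5G815358, 0.76). The latter call needed HB replicate 3 and LB replicates 1 and 3, and was lost with only HB and LB fitted (limma adjusted p = 0.074).

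Downstream of lycopene, the epsilon cyclase lcyE, which directs carotene toward lutein, fell by 1.09 (12.1 ± 1.07 RPKM in HB against 26.7 ± 5.66 in LB, SE 0.14, limma adjusted p = 5.6e-05). It was the 1 of 3 called among cyclases and hydroxylases, a list whose other genes are BCH1 and BCH2. In the MEP list dxs1 and lw1 were lower and dxs2 higher of 5 tested, while dxr and Hds1, the intermediate enzymes, were not called. lw1, the last enzyme of that pathway, fell by 0.40 (SE 0.11, limma adjusted p = 0.0123), lost without LB replicate 1 or 3 or with only HB and LB fitted (0.102). Among cleavage dioxygenases CCD1 fell by 0.42 (128 ± 8.65 RPKM against 172 ± 22.9), a call lost without any 1 of 5 libraries or with quantile normalization (0.0946), and vp14, an enzyme of abscisic acid synthesis with under 5 RPKM in both groups, was higher by 0.87, a call lost without HB replicate 3 or LB replicate 1; 3 were tested.

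Tocopherol genes, which draw on the same prenyl supply, split in the lower leaf into 3 higher and 2 lower of 5. VTE2-1, the homogentisate phytyltransferase, rose by 0.86 (174 ± 5.90 RPKM in HB against 96.7 ± 19.1 in LB), hppd1 by 0.77 and the phytol kinase VTE5 by 0.43. The VTE5 call was lost without any 1 of 4 libraries, after median-ratio rescaling (limma adjusted p = 0.212), with no filter (0.0504) and with only HB and LB fitted (0.0531). The tocopherol cyclase sxd1 fell by 0.99 (33.5 ± 2.86 against 68.1 ± 15.7) and the methyltransferase TMT by 0.68. Both tested genes of chlorophyll breakdown rose, the stay-green gene SGR2 by 2.83 (46.4 ± 14.2 RPKM against 6.09 ± 1.74, limma adjusted p = 9.44e-06) and lls1, the pheophorbide oxygenase, by 1.29 (93.1 ± 24.8 against 37.0 ± 3.29, limma adjusted p = 2.51e-05).

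In the ear leaf 2 of the 22 other list genes were higher and 4 lower, where 8.97% of all genes were called higher and 4.97% lower, with a median of -0.25 against 0.03 over all genes. From phytoene to lycopene, psy2, Pds (GRMZM2G410515, -0.52), vp9 (GRMZM2G454952, -0.49) and CRTISO1 (-0.37) fell and Pds (GRMZM5G815358, 0.98) rose, 5 of 8 tested. lw1 fell by 0.37 (limma adjusted p = 0.0374, and 0.0543 after median-ratio rescaling) and vp14 was higher by 0.87. Each of these 6 calls on genes other than psy2 was lost without at least 2 of the 6 libraries. No tocopherol, chlorophyll-breakdown, cyclase or hydroxylase gene was called there by limma; at an unadjusted p under 0.05 stood 2 of 5 tocopherol genes, 0 of 2 of chlorophyll breakdown and 2 of 3 cyclases and hydroxylases. Above the ear limma called none of the 22, with 2 at an unadjusted p under 0.05. The single tested PIF-named gene, PIF5, was not called in any of the 3 density comparisons by limma, nor below 0.05 before adjustment.

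**Figure D4:**
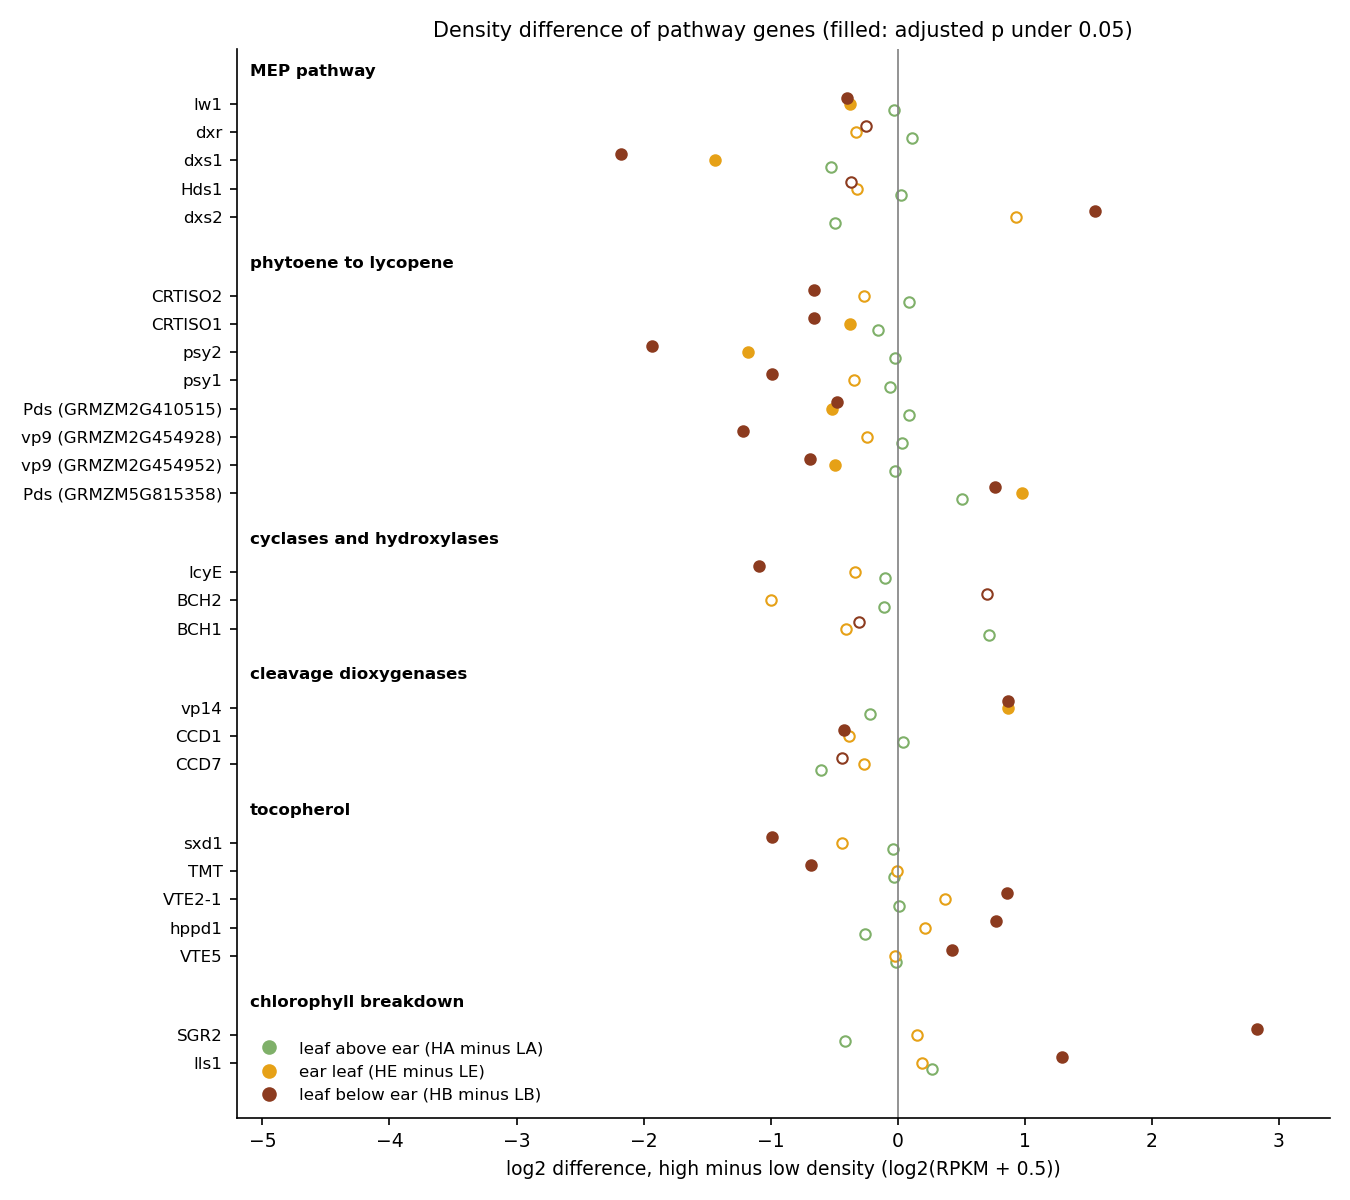
Log2 difference between high and low density for the tested genes of 6 pathway lists (horizontal axis, log2(RPKM + 0.5)) in the leaf above the ear (green), the ear leaf (yellow) and the leaf below the ear (brown); filled points have a limma adjusted p under 0.05. Below the ear most carotenoid genes from psy1 to lcyE lie left of 0, while dxs2 at 1.55, VTE2-1 at 0.86 and SGR2 at 2.83 lie right of it.

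The genes whose pattern over the 18 libraries was most like that of each enzyme were sought among 101 named genes with a mean of at least 5 RPKM, by the mean absolute difference of log2(RPKM + 0.5) after each gene's own mean was subtracted. psy1 was followed closely, by WHY1 (0.079), ORRM1 (0.089) and ERA1 (0.108), against its own mean deviation of 0.321. WHY1, for example, averaged 63.5 RPKM in HA, 53.5 in HE, 26.6 in HB, 64.9 in LA, 65.1 in LE and 53.2 in LB. The other 4 had no such close match. NNR1 came nearest to dxs1 (0.620 against a mean deviation of 1.076), to psy2 (0.513 against 1.004) and to BCH1 (0.592 against 1.188). It averaged 47.2 RPKM in HA, 23.7 in HE, 7.60 in HB, 52.9 in LA, 21.65 in LE and 17.9 in LB. Unlike dxs1, psy2 and BCH1, its mean was not lower in HE than in LE. PPR10 and CCOAOMT2 were next for dxs1 (0.673 and 0.688), PPR10 and GLG1 for psy2 (0.646 and 0.651), and lox12 and CNR2 for BCH1 (0.748 and 0.804). BCH2 was nearest to CNR2 (0.507), ts1 (0.550) and CCOAOMT2 (0.578), against a mean deviation of 0.842. These likenesses are descriptions over libraries that share leaf position and density.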

How the data were processed

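Total RNA of leaves was sequenced from libraries made with the NEBNext Ultra RNA kit, per the labels' protocols, and 18 tables of RPKM per gene were deposited by the authors. The submitters' processing notes name Trimmomatic 0.35, HISAT 0.1.6, HTSeq 0.6.1 and the B73 RefGen_v3 build, without roles; strand and multiply mapped reads are not given in the sources used here. RPKM are not counts, so limma 3.58.1 (R 4.3.3) was run on log2(RPKM + 0.5) (1 mean for each of 6 groups, intensity trend, 12 residual degrees of freedom), with p-values adjusted over the 21184 genes that reached 1 RPKM in at least 3 libraries. The script was tested on simulated data. RPKM summed to 560984 to 595593 per library. Total depth is unknown, but relative depth came from the value steps of 5747 low genes, and reads (or pairs) for every member except psy1 were recovered to within 0.011 of whole numbers.

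Gene models were matched to names through a RefSeq table of another assembly (17838 models matched, 489 of them in more than 1 row), so no coordinates or sequences are given. All 5 members are named, and of each pathway list at most the 3 largest called rises and falls with at least 5 RPKM per density comparison; vp14, dxr, Hds1, PIF5 and, below the ear, CRTISO2 and Pds (GRMZM2G410515) were named after their values were seen. The members, lists and markers were chosen with earlier results of these data known, and 5 list genes were added after the names were read (dxr, VTE2-1, TMT, PIF4, PIF5). Same-numbered libraries deviated together (every r over 0.1) in 2 of 15 pairs of groups (HA–HE and HA–LB), so the numbers were not treated as pairs; for HA against HE a replicate block over those 6 libraries, an alternative chosen after seeing the data, changed no member's call. Pseudocounts of 0.1 and 1, other filters, rescaling, quantile normalization, no trend, fits of only the groups compared, a replicate block and leaving out each library were tried.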

Additional observations from a re-analysis of the deposited data

Results flagged for a closer look

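The results below are differences of the density difference (high minus low) between leaves that passed the limma test (Benjamini-Hochberg adjusted p under 0.05 over all genes), in log2(RPKM + 0.5). Between the leaf below and the leaf above the ear, psy1 differed by -0.93 (adjusted p = 0.00713) and psy2 by -1.91 (0.0178), and these involve the LA libraries whose treatment label conflicts with their titles. Of the list genes in the same contrast, lcyE differed by -0.99, sxd1 by -0.95, vp9 (GRMZM2G454952) by -0.67, Pds (GRMZM2G410515) by -0.57 and CRTISO1 by -0.51. In the opposite direction SGR2 differed by 3.24, hppd1 by 1.03, lls1 by 1.02 and VTE2-1 by 0.85. The calls of psy1, SGR2, lls1, lcyE and sxd1 held without any 1 library, whereas those of vp9, Pds and CRTISO1 were lost without any 1 of 7, 8 and 9 libraries, and those of psy2, VTE2-1 and hppd1 without any 1 of 2.

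Between the leaf below the ear and the ear leaf, SGR2 differed by 2.68 (adjusted p = 0.00281), lls1 by 1.10 (0.00942) and lcyE by -0.75 (0.0416). The first 2 held without any 1 library, and lcyE was lost without any 1 of 10.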

How the results depend on the processing

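Of the recomputed log2 differences of the 5 genes, 894 kept direction and side of the threshold, 60 lost a call, 22 gained one and 14 turned direction, none of these 14 called in either setting. With 1 library left out, differences that turned ran as follows: for HA minus LA, psy1 from -0.181 (without LA replicate 2) to 0.032 (LA replicate 1; 0.007 without HA replicate 3), psy2 from -0.189 (LA replicate 2) to 0.242 (LA replicate 1; 0.065 and 0.027 without HA replicates 2 and 3) and BCH2 from -0.327 (HA replicate 1) to 0.256 (HA replicate 2; 0.001 without LA replicate 1); for LA minus LE, psy1 from -0.167 (LA replicate 1) to 0.047 (LA replicate 2); for LB minus LE, dxs1 from -0.822 (LB replicate 3) to 0.008 (LB replicate 2) and psy2 from -0.602 (LB replicate 1) to 0.214 (LB replicate 2); for the lower-leaf minus ear-leaf density difference, BCH1 from -0.118 (LE replicate 3; -0.002 without HE replicate 3) to 0.290 (LE replicate 2). Quantile normalization turned psy1 for HA minus LA (0.015), and a pseudocount of 0.1 turned BCH1 in the lower-leaf minus ear-leaf difference (-0.109). The BCH2 share turned to -2.81 points over all 3 leaf positions. The cause was not tested.

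The number of the 5 genes called moved as follows. HE against LE gave 1 with no filter and 4 with only these groups fitted (2 in the reported fit), 3 with quantile normalization, and 0 to 2 with 1 library left out. LA against LE gave 1 with a pseudocount of 0.1, no filter, quantile normalization or no trend (2 reported), and 0 to 1 with 1 left out. The lower-leaf minus ear-leaf difference gave 1 with quantile normalization (0 reported) and 0 to 2 with 1 left out. With 1 library left out, counts ran from 1 to 2 for HB against HE (4 reported), 0 to 1 for LB against LE (0 reported), 1 to 4 for the lower-leaf minus upper-leaf difference (2 reported), 3 to 4 for HB against LB, 5 to 5 for HA against HB, 3 to 4 for HA against HE and 2 to 4 for LA against LB. With 1 left out the psy1 share rise ran from 1.64 to 2.37 points (1.23 over all 3 leaf positions) and the BCH2 share from 0.725 to 3.96.

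With the replicate number as a block, HE against LE gave 3 genes (psy1 added, adjusted p = 0.0233), the lower-leaf minus ear-leaf difference 1 (psy1, 0.0125), the lower-leaf minus upper-leaf difference 3 (dxs1 added, 0.0254), LA against LB 4 (psy2 added, 0.0204) and HB against HE 3 (BCH1 lost, 0.0517), with no other count changed; every library correlated best with its own number in 5 of 15 pairs of groups, a hint from the data and not the design.

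The percent of all genes called ran from 4.27 (without HE replicate 2) to 20.7 (only the groups compared) for HE against LE, and from 21.4 to 42.4 for HB against LB. Median-ratio rescaling moved the median of all genes for HB minus LB from 0.161 to 0.012, and the share of calls that were higher from 66.1% to 47.2% (45.8% with quantile normalization), for HE minus LE from 64.3% to 55.0% (46.2%), for HB minus HE from 61.8% to 47.3% (49.5%) and for HA minus HB from 35.4% to 50.6% (49.8%). The replicate block over only HA and HE raised the percent called there from 2.44 to 5.08. BCH1 below the ear is limited by 3 to 12 reads per library.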
